A study of Danio rerio with 2 samples.

Results

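The genes described here are the subunits of the vacuolar proton pump and the trafficking complexes that build lysosome-related organelles, in reporter-sorted cells of zebrafish embryos. They were chosen by symbol: names that begin with atp6v, atp6ap, bloc1s or vps, with ap1 or ap3 followed by b, d, g, m or s, or with hps and a digit, together with rab32a, rab38a, rab38b and rab27a. Of 18723 gene rows, 92 matched and 84 reached the minimum of 10 unique molecular identifiers (UMIs, each standing for 1 captured transcript), among 12248 rows that did. Just inside that minimum were ATP6V0A1 (ENSDARG00000015174) with 10 UMIs and VPS37B (ENSDARG00000039319) with 11, and just outside were ap3b2 with 8 and vps37bb with 7. The 84 members are 24 proton pump genes (12 of the V1 part, 8 of the V0 part and 4 accessory genes) and 60 trafficking genes.

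The cells were sorted for green and red fluorescence driven by mitfa and crestin sequences, which mark pigment cell precursors and neural crest, and came from AB wild-type embryos at 24 hours post fertilisation. Some embryos had received ErbBi, whose name was taken to mean a blocker of ErbB receptors, and the others were untreated. There was 1 library for ErbBi and 1 for untreated embryos, so a difference between them has no replicate behind it, and the treatment cannot be told apart from its library. The dose and duration of ErbBi are not given in the sources used here, nor is the number of embryos.

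The vacuolar ATPase is a rotary pump that acidifies organelles. Its V1 part, in the cytosol, splits ATP, and its V0 part, in the membrane, carries the protons. Pigment organelles are relatives of the lysosome: melanosomes store melanin in melanocytes, and pterinosomes store pteridines in the yellow xanthophores of fish. Their cargo is sorted by the adaptor AP-3, by the BLOC complexes and by the small GTPases RAB32 and RAB38, and loss of several of these genes dilutes pigment in mice, fish and people with Hermansky-Pudlak syndrome. The adaptor AP-1 and the complexes retromer, HOPS, CORVET, GARP and ESCRT move cargo between endosomes, the Golgi and lysosomes in most cell types.

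The ErbBi library held 348 cells and 1113172 UMIs (median 2732.5 per cell), against 999 cells and 7242348 UMIs (median 7099) in the untreated library. Cells were called melanin-rich when dct, pmela and the 2 TYRP1 genes took over 1% of their UMIs and gch2 at most 2%. They were called gch2-rich when gch2, a pteridine synthesis gene, took over 2% and the melanin genes at most 1%. Melanin-rich cells numbered 64 in the ErbBi and 403 in the untreated library, gch2-rich cells 19 and 124, and cells low in both 265 and 471, while 1 untreated cell was rich in both and was left out. The listed melanoblast genes (9 rows) summed to 33395 and 36686 CPM, which are counts scaled to a library total of 1e6 UMIs, in melanin-rich cells of the ErbBi and untreated libraries, and to at most 4743 CPM in the other classes. The xanthoblast genes (also 9 rows) summed to 44745 and 56730 CPM in gch2-rich cells and to at most 4535 CPM elsewhere. Both lists include the genes that define the classes. The low class was mixed: 8 mesenchyme gene rows summed to 1741 CPM there in the ErbBi library and 595 CPM in the untreated one, against 643 and 82.5 CPM in melanin-rich cells. Erythroid markers summed to 2.37 CPM in ErbBi and 808 CPM in untreated low cells, and macrophage markers to 193 and 22.7 CPM. The 2 libraries shared 6 cell barcodes.

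Summed, both gene groups were highest in melanin-rich cells, intermediate in gch2-rich cells and lowest in cells low in both, in each library. The pump sum is given without atp6v0e1, a choice made after its flat level had been seen. In the ErbBi library the 23 other pump genes summed to 7641 CPM (95% interval 7272 to 8025) in melanin-rich, 4562 CPM (4031 to 5143) in gch2-rich and 1855 CPM (1764 to 1949) in low cells. In the untreated library they summed to 8444 CPM (8339 to 8550), 4948 CPM (4788 to 5112) and 2706 CPM (2652 to 2761) in the same order of classes. With atp6v0e1 the 3 sums were 10247, 6902 and 4358 CPM in the ErbBi library and 11095, 7258 and 5080 CPM in the untreated library, so the order of the classes was the same. Intervals here are exact Poisson intervals and cover counting error only, not the spread between embryos.

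The sums of the 60 trafficking genes lay closer together in the 2 pigment classes than those of the pump, a difference that was not tested. Their sum was 4450 CPM (4169 to 4744) in melanin-rich, 4066 CPM (3566 to 4617) in gch2-rich and 1818 CPM (1729 to 1912) in low cells of the ErbBi library. The untreated library had 4744 CPM (4666 to 4824), 4106 CPM (3961 to 4256) and 2389 CPM (2338 to 2440). In the ErbBi library the intervals of the pigment classes overlapped. BLOC-1 genes, unlike the other trafficking groups, summed higher in gch2-rich than in melanin-rich cells of both libraries. Their sums were 1025 CPM (782 to 1319) and 872 CPM (750 to 1008) in the ErbBi library. In the untreated library they were 933 CPM (864 to 1006) and 877 CPM (844 to 912). These intervals overlapped in both libraries. Of the 6 BLOC-1 genes, 3 had a fitted ratio of melanin-rich over gch2-rich cells above 1 and 3 below, with a median log2 ratio of 0.06. In the ErbBi library some other groups, such as ESCRT and VPS4, also summed higher in gch2-rich cells. Single cells spread widely around the class sums. Among untreated melanin-rich cells the pump share ran from 5534 to 11598 CPM between the 10th and 90th percentiles, against 859 to 5609 CPM in untreated low cells. A CPM is a share of a cell's transcripts, so a higher share and a smaller total of other RNA cannot be told apart.

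**Figure D1:**
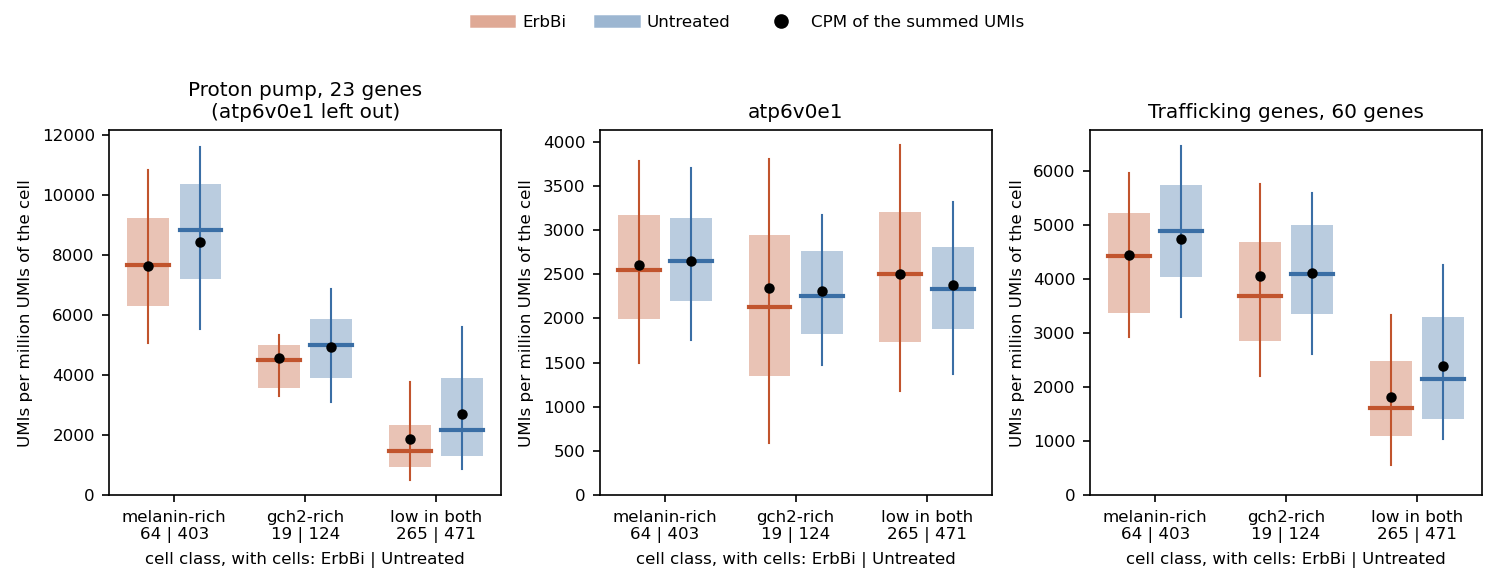
Share of UMIs per cell (vertical axis, CPM) held by 23 proton pump genes, by atp6v0e1 and by 60 trafficking genes, for melanin-rich, gch2-rich and low-in-both cells of the ErbBi (left of each pair) and untreated library. Lines span the 10th to 90th percentile of cells, boxes the quartiles with the median, and black points are the CPM of the summed UMIs; pump and trafficking shares fall from left to right in both libraries, while atp6v0e1 stays between 2310 and 2651 CPM.

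Class differences were tested with edgeR's quasi-likelihood test on UMIs summed per library and class, with the library as a block and p-values adjusted (Benjamini-Hochberg) over 12243 genes. The 5 class-defining genes were left out. With 2 libraries the spread was shared between genes rather than estimated gene by gene. A gene's own disagreement between the libraries thus did not enter its p-value. Between melanin-rich and low cells, 49 of 84 members were higher at an adjusted p under 0.05 and 0 were lower, where 13% of all genes tested were higher and 13.5% lower. No member was lower at an unadjusted p under 0.05, and DESeq2 called 32 members higher and 0 lower. Over all 12243 genes DESeq2 called 577 higher and 444 lower. Of the 49, 48 were higher in both libraries, the exception being vps13c, which had 0 UMIs in ErbBi melanin-rich cells. The members' median log2 ratio was 1.14, beside -0.10 over all genes. Members of at least 100 UMIs accounted for 46 of the 49 calls, out of 59, and among all genes of that depth 21.5% were higher.

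Between gch2-rich and low cells, 29 members were higher and 0 lower, against 4.25% of all genes higher and 4.20% lower, and all 29 were higher by CPM in both libraries. The ErbBi direction rests on few UMIs for some of them. For ap3m2 and ATP6V1C1 (ENSDARG00000035880), ErbBi gch2-rich cells held 6 UMIs each, and their intervals overlapped those of ErbBi low cells. All 29 were among the 59 members of at least 100 UMIs, a depth at which 7.42% of all genes were higher. At an unadjusted p under 0.05, 1 member was lower, and DESeq2 called 18 higher and 0 lower. Over all genes DESeq2 called 251 higher and 138 lower. The median log2 ratio was 0.75 over the members and -0.24 over all genes. It was 0.75 and -0.07 when genes with a class at 0 in both libraries were set at a bound of 3 counts. The count of 29 was 16 with a melanin threshold of 2%, 17 with a gch2 threshold of 4% and 7 without the library block. Calls over all genes fell too, from 520 higher to 350, 314 and 219 in the same order. This comparison uses the same low cells as the one above, so the 2 sets of calls are not independent. When low cells with over 0.02% of UMIs in the mesenchyme list were left out, an alternative added after seeing the data, 41 members were higher in melanin-rich and 22 in gch2-rich cells, and 0 were lower in either. Over all genes, 1190 were then higher and 811 lower in melanin-rich cells, and 425 and 274 in gch2-rich cells. Leaving out cells with at least 5 UMIs of the macrophage, ionocyte, notochord, hatching gland or erythroid lists gave 49 and 29. Over all genes, 1507 and 467 were then higher. That last cut counts UMIs, so it depends on depth.

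**Figure D2:**
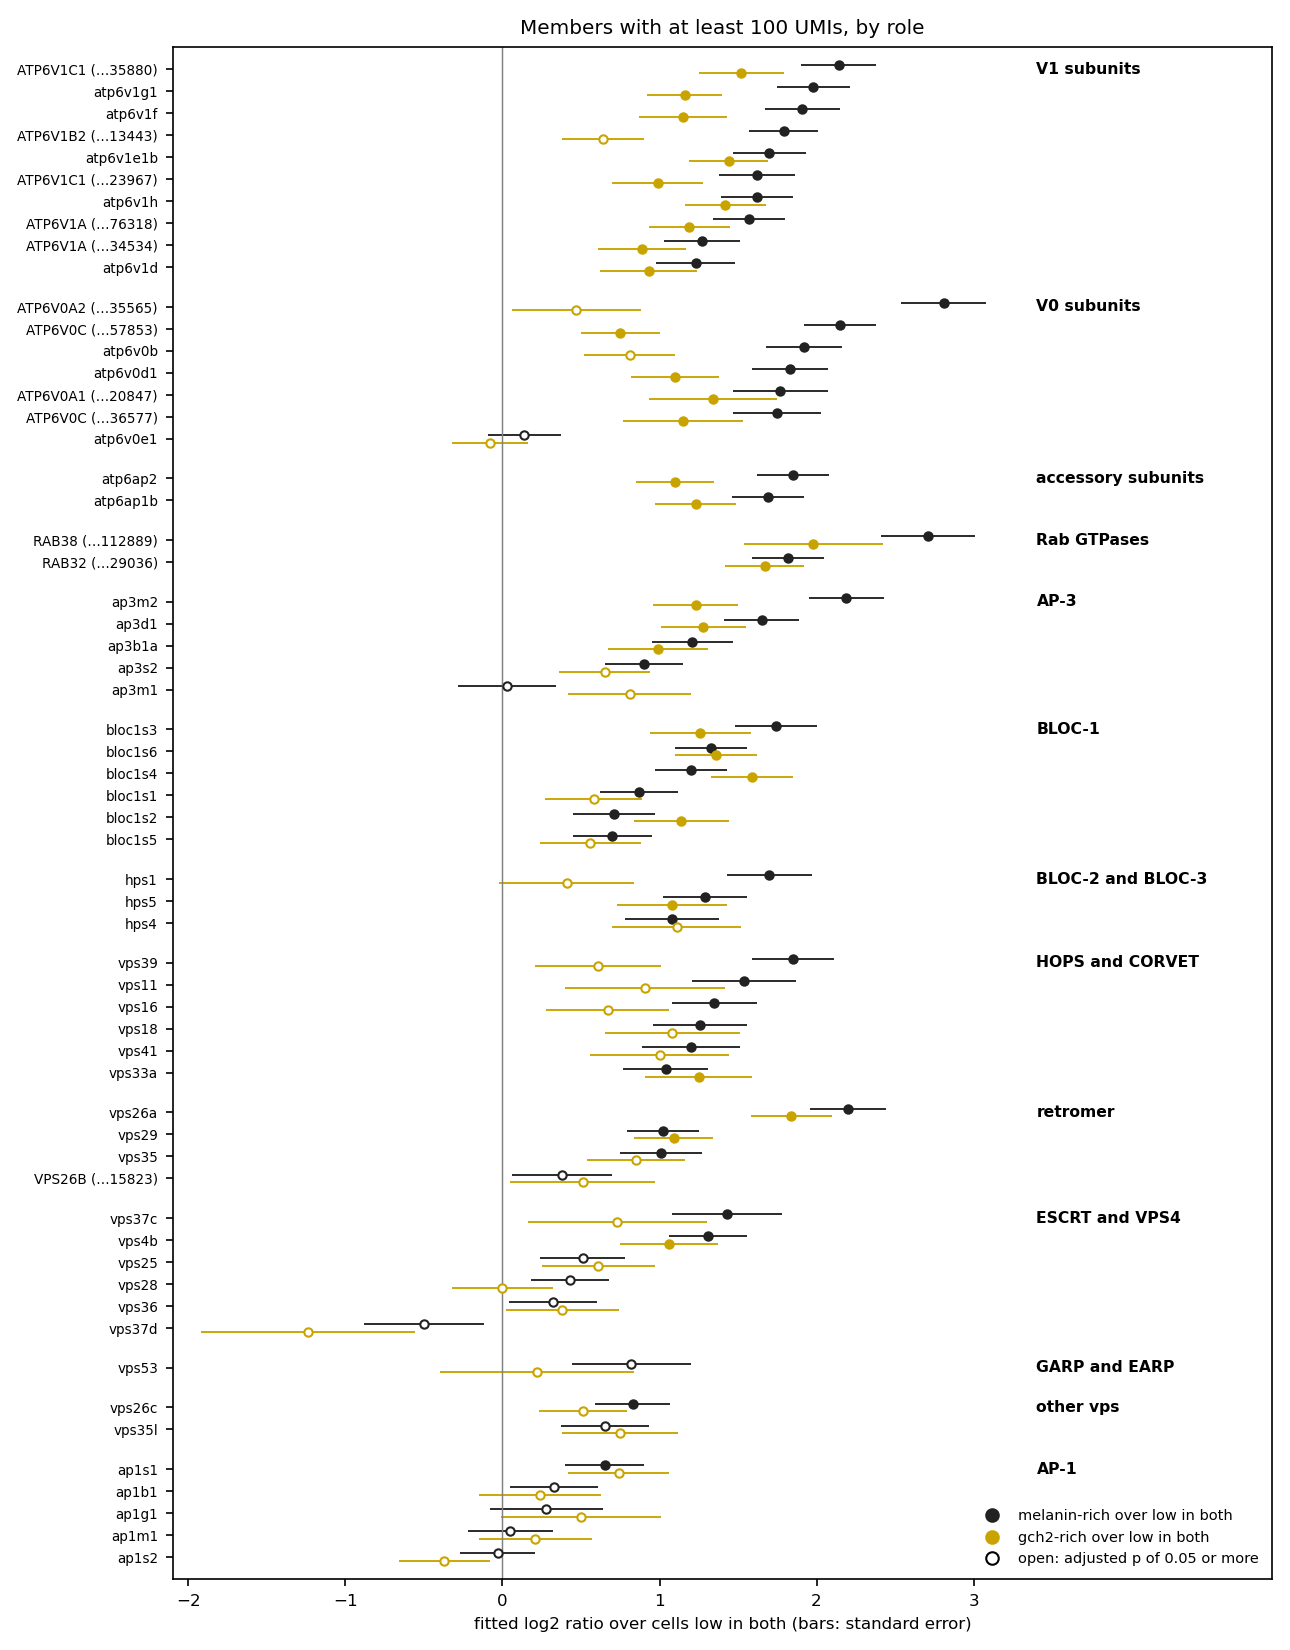
Fitted log2 ratios over cells low in both (horizontal axis, bars are standard errors) for the 59 members with at least 100 UMIs, grouped by role, in melanin-rich (black) and gch2-rich (yellow) cells. Filled points passed an adjusted p of 0.05; most pump, AP-3, BLOC and HOPS genes lie right of 0, with atp6v0e1 and most AP-1 and ESCRT genes near it.

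Of the 12 genes of the V1 part, which holds the ATP-splitting head and the stalks of the pump, 11 were higher in melanin-rich and 9 in gch2-rich cells than in low cells. The stalk subunit atp6v1g1 stood at 1558 CPM in melanin-rich, 940 in gch2-rich and 328 in low cells of the ErbBi library, and at 1941, 1122 and 613 CPM in those of the untreated library. The classes did not overlap between libraries for this gene. Its log2 ratio over low cells was 1.98 (SE 0.23, adjusted p = 1.22e-15 by edgeR) in melanin-rich and 1.16 (SE 0.24, adjusted p = 8.43e-05) in gch2-rich cells. ATP6V1C1 (ENSDARG00000035880), a stator subunit that holds V1 onto V0, had the highest ratio of the V1 genes, 2.14 (SE 0.24) in melanin-rich and 1.52 (SE 0.27) in gch2-rich cells, from 295 and 334 CPM in melanin-rich and 52.1 and 94.6 CPM in low cells of the ErbBi and untreated libraries. Its paralogue ENSDARG00000023967 was also higher in both classes (log2 1.62 and 0.99).

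The other V1 genes with the smallest p-values were the noncatalytic head subunit ATP6V1B2 (ENSDARG00000013443), the shaft subunit atp6v1f and the stalk subunit atp6v1e1b, at log2 1.79, 1.91 and 1.70 in melanin-rich cells. In gch2-rich cells atp6v1e1b reached 1.44, while ATP6V1B2 did not pass (0.64, SE 0.26, adjusted p = 0.127 by edgeR). Both rows of the catalytic subunit ATP6V1A were higher in melanin-rich cells, ENSDARG00000076318 at log2 1.57 and ENSDARG00000034534 at 1.27, and in gch2-rich cells at 1.19 and 0.89. The regulatory subunit atp6v1h had log2 ratios of 1.62 and 1.42. The V1 gene that passed in neither class was a second ATP6V1B2 row (ENSDARG00000043465) with 14 UMIs in all. Where 2 rows share a symbol, how the authors' counting treated reads that fit both copies was not checked, so their levels may be off.

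The V0 part, the membrane ring and its proton channel, held the member with the largest ratio and also the most abundant one, which was level. ATP6V0A2 (ENSDARG00000035565), an a subunit that forms the proton path and sets where the pump is placed, stood at 162 CPM in melanin-rich, 0 in gch2-rich and 22.5 in low cells of the ErbBi library. In untreated cells it stood at 151, 32.8 and 23.8 CPM. Melanin-rich cells were thus alone at the high level in both libraries. The log2 ratio over low cells was 2.81 (SE 0.27, 7.03-fold, adjusted p = 1.78e-23 by edgeR) in melanin-rich cells and 0.47 (SE 0.41, adjusted p = 0.569) in gch2-rich cells. Another a subunit, ATP6V0A1 (ENSDARG00000020847), was higher in both classes (1.77, SE 0.30, and 1.34, SE 0.41) at lower CPM, 23.8 and 55.2 in melanin-rich and 8.29 and 17.9 in low cells of the ErbBi and untreated libraries.

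The ring subunit ATP6V0C (ENSDARG00000057853) had 1486 CPM in melanin-rich, 649 in gch2-rich and 298 in low cells of the ErbBi library, and 1604, 587 and 423 CPM in those of the untreated library. Its log2 ratio was 2.15 (SE 0.23) in melanin-rich and 0.75 (SE 0.25, adjusted p = 0.0334 by edgeR) in gch2-rich cells. Next in melanin-rich cells were atp6v0b of the ring at 1.92 and atp6v0d1 of the central stalk at 1.83. In contrast, atp6v0e1, a small membrane subunit and the member with the most UMIs (20760), lay between 2310 and 2651 CPM in all 6 sums. Its log2 ratios were 0.14 (SE 0.23, adjusted p = 0.729) in melanin-rich and -0.08 (SE 0.24, adjusted p = 0.905) in gch2-rich cells.

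Among the 4 accessory genes, atp6ap2, the prorenin receptor that also helps assemble the pump, and atp6ap1b were higher in both classes. ErbBi cells had 724, 444 and 178 CPM of atp6ap2 in melanin-rich, gch2-rich and low cells, and untreated cells 718, 431 and 232 CPM. It was 3.61-fold higher in melanin-rich cells (SE 0.23 on the log2 scale) and 2.14-fold higher in gch2-rich cells (SE 0.25). The log2 ratios of atp6ap1b were 1.69 and 1.23, and the gch2-rich ratio was 0.72 and did not pass with a gch2 threshold of 4%. The paralogues atp6ap1a (37 UMIs) and atp6ap1la (12 UMIs) passed in neither class.

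Of the Rab GTPases of pigment organelles, RAB38 and RAB32 were higher in both pigment classes. RAB38 and RAB32 direct melanin enzymes to melanosomes in mammals, and rab27a links finished melanosomes to myosin. The RAB38 row (ENSDARG00000112889) may be rab38a or rab38b, and the paralogue letter of RAB32 (ENSDARG00000029036) is likewise open, because the name table gives human-style symbols. RAB38 stood at 100 CPM in melanin-rich, 68.3 in gch2-rich and 8.29 in low cells of the ErbBi library, and at 52.9, 31.5 and 10.6 CPM in the untreated library. Low cells were below both pigment classes in each library. The log2 ratios were 2.71 (SE 0.30, adjusted p = 3.57e-17 by edgeR) and 1.98 (SE 0.44, adjusted p = 0.000268), and the gch2-rich ratio was 0.72 and did not pass when gch2-rich cells needed over 4% gch2.

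RAB32 was about as high in gch2-rich as in melanin-rich cells. ErbBi cells had 529 CPM in melanin-rich, 615 in gch2-rich and 114 in low cells, and untreated cells had 579, 484 and 212 CPM. The log2 ratios over low cells were 1.82 (SE 0.23) and 1.67 (SE 0.25), and the ratio of melanin-rich over gch2-rich cells was 0.15 (SE 0.24, adjusted p = 0.890 by edgeR). Rab27a was sparse, with 63 UMIs in all. It stood at 4.76, 0 and 2.37 CPM in the ErbBi library and at 11.3, 10.9 and 5.32 CPM in the untreated library, and its ratio in melanin-rich cells (1.22, SE 0.50) just missed the threshold (adjusted p = 0.0545).

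The AP-3 adaptor sorts cargo from endosomes to lysosomes and melanosomes, and 4 of its 5 measured genes were higher in melanin-rich and 3 in gch2-rich cells. The medium subunit gene ap3m2 had 353 CPM in melanin-rich, 103 in gch2-rich and 49.7 in low cells of the ErbBi library, and 352, 215 and 107 CPM in the untreated library. The log2 ratios were 2.19 (SE 0.24) and 1.23 (SE 0.27). Its paralogue ap3m1 was at 14.3 and 22.8 CPM in melanin-rich and 21.3 and 23.2 CPM in low cells of the ErbBi and untreated libraries, a log2 ratio of 0.03 (SE 0.31, adjusted p = 0.957 by edgeR). The large subunit ap3d1 rose by log2 1.65 in melanin-rich and 1.28 in gch2-rich cells.

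All 6 BLOC-1 genes were higher in melanin-rich cells, with log2 ratios between 0.70 and 1.74, and 4 of 6 in gch2-rich cells. BLOC-1 is a complex of coiled-coil proteins that carries melanosome cargo out of early endosomes. Its gene bloc1s4 had 248 CPM in melanin-rich, 359 in gch2-rich and 97.1 in low cells of the ErbBi library, and 253, 326 and 127 CPM in the untreated library, so gch2-rich cells had the highest level in both. Over low cells it was 2.29-fold higher in melanin-rich cells (SE 0.23 on the log2 scale), with a log2 ratio of 1.59 (SE 0.26) in gch2-rich cells, and the log2 ratio of melanin-rich over gch2-rich cells was -0.39 (SE 0.25, adjusted p = 0.588 by edgeR). For bloc1s6, whose loss pales the coat of the pallid mouse, the log2 ratios over low cells were 1.33 and 1.36.

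Of the 4 hps genes, which encode BLOC-2 and BLOC-3 subunits, 3 were higher in melanin-rich cells and hps5 alone in gch2-rich cells. The HOPS complex tethers late endosomes to lysosomes, and CORVET tethers early endosomes. Of the 8 genes placed with these 2 complexes by the number in their symbol, 6 were higher in melanin-rich cells and vps33a alone in gch2-rich cells. Several of these are pigment genes in zebrafish, named here outside the naming rule: mutants of hps5, vps11 and vps18 are hypopigmented. For hps5 the levels were 42.9, 68.3 and 13.0 CPM in melanin-rich, gch2-rich and low cells of the ErbBi library and 68.5, 54.7 and 33.3 CPM in those of the untreated library. Both pigment classes were above the low cells of their library by CPM. The ErbBi values rest on 9, 4 and 11 UMIs, and both pigment-class intervals there overlapped that of low cells. The log2 ratios in melanin-rich cells were 1.29 (SE 0.27) for hps5, 1.54 (SE 0.33) for vps11 and 1.26 (SE 0.30) for vps18. The 2 genes of this group that did not pass, vps8 and vps33b, had 54 and 45 UMIs. Vps33b was placed here by its number alone and may belong to neither complex.

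Retromer returns receptors from endosomes to the Golgi, and 3 of its 5 genes were higher in melanin-rich and 2 in gch2-rich cells. The cargo subunit vps26a was at 357 CPM in melanin-rich, 342 in gch2-rich and 56.8 in low cells of the ErbBi library, and at 453, 342 and 127 CPM in the untreated library. Its log2 ratios were 2.20 (SE 0.24, adjusted p = 3.71e-18 by edgeR) and 1.84 (SE 0.26, adjusted p = 2.64e-10). The core subunit vps29 had ratios of 1.02 and 1.09. Both VPS26B rows, paralogues of vps26a, passed in neither class (0.38 and 0.22 in melanin-rich cells).

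Fewer members passed in the remaining groups. Of 9 ESCRT and VPS4 genes, which form vesicles inside endosomes, vps4b and vps37c were higher in melanin-rich cells and vps4b alone in gch2-rich cells. Of 8 AP-1 genes, whose adaptor works at the Golgi, ap1s1 was higher in melanin-rich cells (0.65, SE 0.25, adjusted p = 0.0437 by edgeR) and none in gch2-rich cells. Vps51 of the GARP and EARP tethers (57 UMIs), vps13c, a lipid transfer protein (96 UMIs), and vps26c of the commander complex also passed in melanin-rich cells, and none of these 3 passed in the direct comparison with gch2-rich cells. VPS72, matched by its letters alone, is known as a chromatin protein and passed in neither class. These lists are short and many of their genes sparse: 25 of the 84 members had under 100 UMIs, and 3 of those passed in melanin-rich cells and 0 in gch2-rich cells.

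Compared directly, 9 members were higher in melanin-rich than in gch2-rich cells and 0 were lower, where 2.56% of all genes were higher and 1.77% lower. No member was lower at an unadjusted p under 0.05, and DESeq2 called 5 higher and 0 lower. Over all genes DESeq2 called 96 higher and 97 lower. Without the library block 1 member, ATP6V0A2, passed, and over all genes 74 were higher and 102 lower. All 9 were among the 59 members of at least 100 UMIs, where 4.86% of all genes were higher. Of the 9, 5 were V0 or V1 genes: ATP6V0A2, ATP6V0C (ENSDARG00000057853), ATP6V1B2 (ENSDARG00000013443), atp6v0b and atp6v1g1. The largest ratio was that of ATP6V0A2, at log2 2.34 (SE 0.35, adjusted p = 5.59e-09 by edgeR). In the ErbBi library, where gch2-rich cells had 0 of its UMIs, melanin-rich cells were at least 3.16-fold higher, counting 3 UMIs for the empty class. ATP6V0C followed at 1.40 (SE 0.25), ATP6V1B2 at 1.15 (SE 0.26), atp6v0b at 1.11 (SE 0.28) and atp6v1g1 at 0.82 (SE 0.24).

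The other 4 were atp6ap2 at 0.76 (SE 0.25), ap3m2 at 0.96 (SE 0.27), hps1 at 1.29 (SE 0.38) and vps39, a HOPS subunit, at 1.25 (SE 0.36). All 4 of these calls were lost with DESeq2 and without the library block. That of atp6ap2 was also lost with a low class held to 0.5% melanin genes and 1% gch2, with cells of at least 1900 UMIs, and with a gch2 threshold of 4%. The last of these also ended the call of atp6v1g1 (log2 0.89). Hps1 stood at 42.9 CPM in melanin-rich and 34.2 in gch2-rich cells of the ErbBi library, against 70.2 and 26.0 CPM in those of the untreated library. No BLOC-1, retromer, AP-1, ESCRT or Rab gene passed in this comparison. Gch2-rich cells of the ErbBi library held 58532 UMIs, so a gene at 17.1 CPM there, such as vps39, rests on 1 UMI in that sum.

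Along the melanin-gene share the pump sum was higher in each successive bin of both libraries. Cells with at most 2% gch2 were binned at 0.5%, 1%, 2% and 4% of UMIs in melanin genes. From the lowest to the highest bin the pump sum without atp6v0e1 was 1772, 3000, 6781, 7718 and 8397 CPM in the ErbBi library and 2285, 5064, 6377, 8411 and 10169 CPM in the untreated library. The highest bin exceeded the lowest 4.74-fold in the ErbBi and 4.45-fold in the untreated library. These folds leave out atp6v0e1, which was level over the bins, and with it they would be smaller. The trafficking sum was 1748, 2790, 4038, 4532 and 4670 CPM in ErbBi cells and 2164, 3647, 4306, 4907 and 4927 CPM in untreated cells. The trafficking sum was level over the last 2 bins, whose intervals overlapped in both libraries. By the same standard the ErbBi pump intervals also overlapped between neighbouring bins above 1%, while the untreated pump intervals did not. The ErbBi bins at 1 to 2% and over 4% held 15 and 12 cells, and every untreated bin held at least 78.

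Single members took different courses over these bins. ATP6V0A2 was at 19.0, 70.2, 151, 138 and 248 CPM in the ErbBi library and at 15.8, 68.3, 91.8, 134 and 217 CPM in the untreated library, still higher in the last untreated bin than in the one before it. ATP6V0C went on in the same way, reaching 2112 CPM (1687 to 2611) in ErbBi and 2167 CPM (2077 to 2260) in untreated cells of the last bin. By contrast bloc1s4 was already at its plateau in the second bin. Its values were 83.8, 281, 238, 235 and 298 CPM in the ErbBi library and 100, 279, 278, 255 and 229 CPM in the untreated library. RAB32, ap3m2 and vps26a lay between these courses, with untreated values of 590, 376 and 486 CPM in the last bin and 436, 240 and 277 CPM in the second. In every bin atp6v0e1 stayed between 2186 and 2807 CPM.

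**Figure D3:**
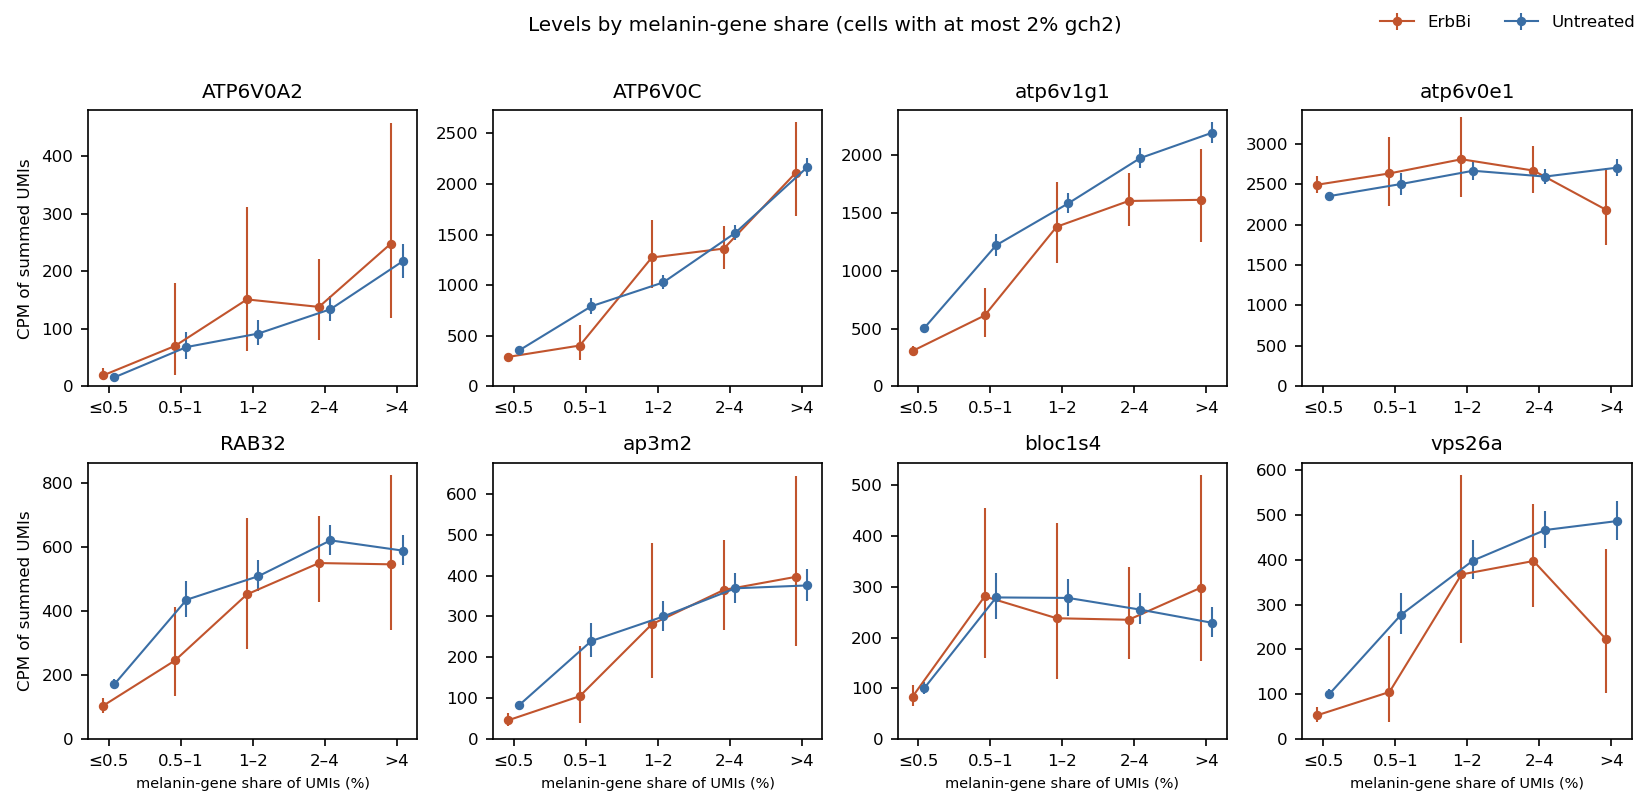
CPM of 8 members (vertical axes, each from 0, bars are exact Poisson 95% intervals) in cells binned by the melanin-gene share of their UMIs (horizontal axis, percent), ErbBi in orange and untreated in blue. ATP6V0A2 and ATP6V0C are highest in the last bin of both libraries, bloc1s4 levels off from the second bin, and atp6v0e1 is flat.

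Along the gch2 share the step in the pump sum was smaller. Among cells with at most 1% melanin genes, the pump sum was 1764, 3845, 3692, 4474 and 4654 CPM from the lowest to the highest bin of the ErbBi library, and 2466, 3562, 4373, 5184 and 4797 CPM in the untreated library. The highest bin exceeded the lowest 2.64-fold in the ErbBi and 1.95-fold in the untreated library. The pump sum here leaves out atp6v0e1 as well, and with it these folds would be smaller. All 4 ErbBi bins above 0.5% gch2 held 10 cells or fewer, so their course cannot be read bin by bin, while untreated bins held at least 27. ATP6V0A2 was at 24.2, 8.03, 32.5, 35.1 and 31.4 CPM over the untreated bins, with overlapping intervals at both ends. RAB32 was at 169, 373, 498, 480 and 487 CPM over these bins, bloc1s4 at 107, 201, 264, 347 and 312 CPM, and vps26a at 104, 177, 303, 280 and 382 CPM. These 3 were higher in the last untreated bin than in the lowest and the intervals of the 2 bins did not overlap. Depth differed between these bins: untreated cells had a median of 3940 UMIs in the last bin, 7210 in the lowest and 8291 to 9299 in those between. Whether depth bears on these levels was not tested.

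**Figure D4:**
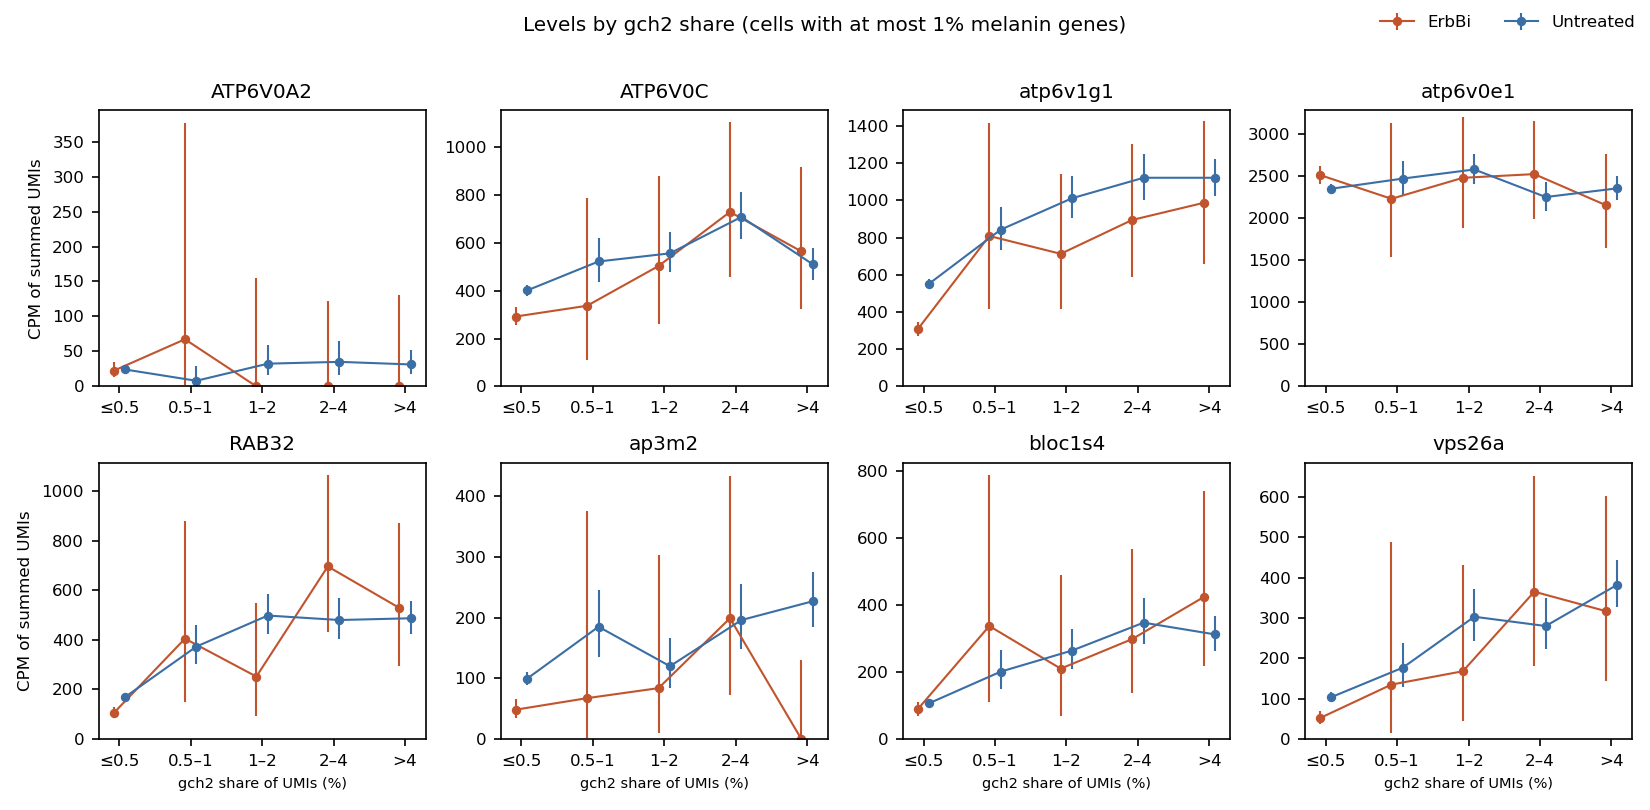
CPM of the same 8 members (vertical axes, each from 0, bars are exact Poisson 95% intervals) in cells binned by the gch2 share of their UMIs (horizontal axis, percent), ErbBi in orange and untreated in blue. RAB32, bloc1s4 and vps26a are higher in the upper untreated bins, ATP6V0A2 and atp6v0e1 are not, and the ErbBi bins above 0.5% hold 10 cells or fewer.

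Over all cells, the summed members were lower in the ErbBi library than in the untreated library. The pump sum without atp6v0e1 was 3088 CPM in ErbBi and 5259 CPM in untreated cells, a ratio of 0.587 (95% interval 0.567 to 0.608), and the trafficking sum was 2433 against 3516 CPM, a ratio of 0.692 (0.665 to 0.720). These intervals are exact conditional binomial intervals for counting error, and no test between treatments can be made. Left out of the pump sum for its flat level, atp6v0e1 stood at 2514 CPM in ErbBi and 2480 CPM in untreated cells. With it, the pump sums of the libraries would lie closer together. The ErbBi library also held fewer pigment cells, 18.4% of its cells melanin-rich against 40.3% of the untreated library. Of 77 members with at least 30 UMIs, 8 were at least 1.5-fold higher and 35 at least 1.5-fold lower in ErbBi, where 27.2% of all genes were higher and 14.4% lower.

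By CPM, which divides by UMI totals alone, the 2 libraries lay closer together within the melanin-rich and gch2-rich classes. In melanin-rich cells the pump ratio was 0.905 (0.860 to 0.952) and the trafficking ratio 0.938 (0.877 to 1.00). In gch2-rich cells they were 0.922 (0.811 to 1.04) and 0.990 (0.864 to 1.13). In cells low in both they were 0.686 (0.649 to 0.723) and 0.761 (0.721 to 0.804). These pump ratios leave out atp6v0e1. With it the pump sums of low cells were 4358 CPM in ErbBi and 5080 CPM in untreated cells, a smaller gap. The closer levels in the pigment classes also depend on the scaling. TMM, the scaling of sums used in the class fits, had factors of 1.163 (ErbBi) and 0.8218 (untreated) in melanin-rich cells. The factors were 1.305 and 0.8016 in gch2-rich cells and 1.064 and 0.9397 in low cells. Dividing by them would lower every ratio here, and least in low cells. Members past 1.5-fold numbered 8 higher and 13 lower of 69 in melanin-rich cells (all genes 22% and 14.5%), 6 higher and 6 lower of 44 in gch2-rich cells (19.7% and 18.3%) and 8 higher and 22 lower of 68 in low cells (20% and 12.3%).

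In the low class, 233 of 265 ErbBi and 162 of 471 untreated cells held over 0.02% of their UMIs in the mesenchyme list. That cut depends on depth: low cells had a median of 2719 UMIs in ErbBi and 7278 in untreated cells. At those medians 1 UMI of the list passes the cut in ErbBi but not in untreated cells. The list also stood at 643 CPM in ErbBi and 82.5 CPM in untreated melanin-rich cells, so the cut need not select like cells in the 2 libraries. The low cells were split at 0.02%, a step added after seeing the data. Those above it had a pump sum, again without atp6v0e1, of 1757 CPM in ErbBi and 1954 CPM in untreated cells, a ratio of 0.899 (0.841 to 0.960). Those at or below it had 2934 and 3172 CPM, a ratio of 0.925 (0.802 to 1.06). Both ratios were nearer to 1 than the 0.686 of all low cells, though the group at or below the cut held only 32 ErbBi cells. Whether the mesenchyme share accounts for the difference was not tested. It cannot be told apart from treatment, library and depth here. Not every group of cells was nearer to 1: in cells with 0.5 to 1% melanin genes and at most 2% gch2 (21 ErbBi and 78 untreated cells) the pump sum was 3000 CPM in ErbBi and 5064 CPM in untreated cells, a ratio of 0.592 (0.505 to 0.692).

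**Figure D5:**
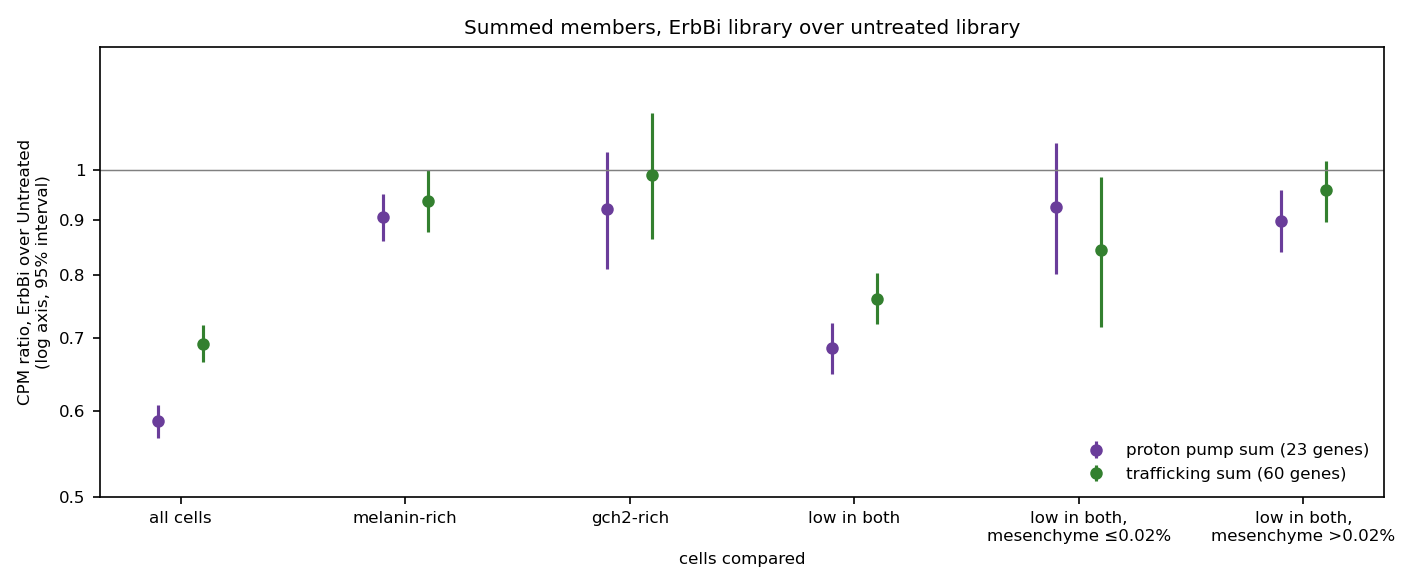
CPM ratio of the ErbBi over the untreated library (vertical axis, log scale, bars are 95% intervals for counting error) for the summed pump genes without atp6v0e1 and the summed trafficking genes, in all cells, in each class and in low cells split by their mesenchyme list share. The pump ratio is 0.587 over all cells and between 0.899 and 0.925 in the classes and splits shown, except for all low cells at 0.686. All ratios are by UMI totals without TMM scaling.

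Of the 77 members with at least 30 UMIs, vps54, a GARP subunit, had the highest ratio over all cells, with 25.2 CPM in ErbBi (28 UMIs) and 6.90 CPM in untreated cells (50 UMIs), 3.64-fold (2.21 to 5.90). Split by class, the same UMIs gave ratios for vps54 of 3.35 (1.13 to 8.37) in melanin-rich and 4.43 (2.32 to 8.47) in low cells. Gch2-rich cells held 0 ErbBi and 4 untreated UMIs. Its ErbBi UMIs came from 5 melanin-rich and 21 low cells. As these UMIs also ranked the gene, the class ratios are not separate evidence. Next among these 77 came ap1g2, an AP-1 large subunit, at 2.07-fold (1.18 to 3.46) and atp6ap1a at 1.79-fold (0.709 to 4.02), whose interval includes 1. At the other end of the 77, vps33b had 1 ErbBi and 44 untreated UMIs, a ratio of 0.148 (0.00366 to 0.868). Rab27a followed with 3 and 60 UMIs, a ratio of 0.325 (0.0653 to 0.997), and ATP6V0A1 (ENSDARG00000020847) with 14 and 254 UMIs, a ratio of 0.359 (0.193 to 0.613). Members under 30 UMIs were too sparse to rank: VPS37B (ENSDARG00000039319) had 4 ErbBi and 7 untreated UMIs (3.72-fold, 0.798 to 14.6), and ap1s3b 0 and 29 UMIs. The level of atp6v0e1 was 2514 CPM in ErbBi and 2480 CPM in untreated cells (ratio 1.01, 0.974 to 1.05).

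Other genes of the pathway, from lists written by function, were counted in the same fits. As above, 13% of all genes tested were higher in melanin-rich and 4.25% in gch2-rich cells than in low cells, or 21.5% and 7.42% of those with at least 100 UMIs. Of 11 tested melanosome genes that did not define the classes, such as the pigment enzyme tyr, the transporter slc45a2 and the receptor gpr143, 10 were higher in melanin-rich and 5 in gch2-rich cells than in low cells, and 0 were lower. Gpr143 had log2 ratios of 1.81 and 1.46, and slc45a2 one of 2.90 in melanin-rich cells. Compared directly, 5 of the 11 were higher in melanin-rich than in gch2-rich cells. The only one lower was mlphb (log2 -3.92, adjusted p = 3.73e-17 by edgeR). Of all genes tested, 2.56% were higher and 1.77% lower in that comparison. Of 8 pteridine genes, 4 were higher in melanin-rich and 7 in gch2-rich cells than in low cells. In the direct comparison 6 were lower in melanin-rich than in gch2-rich cells. Pts, which acts right after gch2 in pteridine synthesis, had a log2 ratio of 1.02 in melanin-rich and 3.11 in gch2-rich cells.

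Of 23 lysosome genes, 17 were higher in melanin-rich and 2 (tpp1 and CTSB, ENSDARG00000055120) in gch2-rich cells, the count of 2 being a share near that of all genes, and 6 were higher in melanin-rich than in gch2-rich cells. The protease gene ctsd had 1224 and 1136 CPM in melanin-rich, 530 and 495 CPM in gch2-rich and 374 and 378 CPM in low cells of the ErbBi and untreated libraries. Its log2 ratio was 1.69 in melanin-rich cells. Of 32 gene rows of biogenesis partners outside the symbol rule, 22 were higher in melanin-rich and 7 in gch2-rich cells, and 0 were lower. Among these DTNBP1 (ENSDARG00000055115), the dysbindin subunit of BLOC-1, had log2 ratios of 1.75 and 1.14, and MITF (ENSDARG00000003732), the melanocyte transcription factor, was 2.84-fold higher in melanin-rich cells. The medians over tested genes were 1.78 for the melanosome, 1.25 for the lysosome and 1.01 for the partner list in melanin-rich cells, and 0.75, 0.48 and 0.62 in gch2-rich cells.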

How the data were processed

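Cells were captured with the 10x Chromium 3' version 2 kit, which reads polyadenylated RNA at its 3' end, and the submitters' processing notes name Cell Ranger 2.1.1, FastQC 0.11.7 and the GRCz11 build. The authors deposited raw UMI counts per gene and cell in 2 tables, with 1519 cells and with 1347 cells after their own filter, which the sources used here do not describe. The filtered counts were used. Suffixes of the cell names were read as libraries from the sample titles alone. Gene symbols came from a table of Ensembl IDs that matched 17967 of 18723 rows. Human-style symbols shared by paralogues were kept with their IDs. The members, lists and tests were chosen with earlier results of these data known.

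UMIs were summed per library and class into 6 sums and fitted with edgeR 4.0.16 (R 4.3.3, TMM scaling, glmQLFit, glmQLFTest, library block), for genes with at least 10 UMIs, with Benjamini-Hochberg adjustment and a threshold of 0.05. The procedure was tested on simulated data, drawn with 1 shared spread and no difference between libraries other than depth, which is simpler than these data. Library, replicate and treatment are the same thing in this block. The libraries carry different treatments and are not replicates of 1 condition, so p-values measure only the spread between these sums. Summed counts were also given as CPM with exact Poisson 95% intervals (scipy 1.17.1), and the 2 libraries were compared as ratios with exact conditional binomial intervals, counting 3 UMIs for a class at 0. Genes were named when they were Rab genes of the rule, among the 15 smallest p-values of a contrast with the same direction in both libraries, among the 6 members with the most UMIs or the 3 highest or lowest ErbBi ratios, or next to the minimum. Other members are named to account for their role group or because the text says so. Alternatives were DESeq2 1.42.0, other scalings, UMI minimums, class thresholds, cell filters, no library block, 1 library at a time, and low cells without mesenchyme markers. Scrublet (scanpy 1.11.5) marked 2 ErbBi and 7 untreated cells as doublets, which were kept in the reported values.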

Additional observations from a re-analysis of the deposited data

Results flagged for a closer look

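By CPM, the shaft subunit atp6v1f differed between the libraries in opposite directions in 2 classes. It stood at 295 CPM in ErbBi and 223 CPM in untreated melanin-rich cells, a ratio of 1.33 (95% counting interval 1.01 to 1.72), and at 56.8 CPM in ErbBi and 77.5 CPM in untreated low cells, a ratio of 0.733 (0.528 to 0.999). The gene was picked out from among the members for this pattern, and both intervals end close to 1. The TMM factors of 1.163 in ErbBi and 0.8218 in untreated melanin-rich cells would lower the ratio of 1.33. The opposite directions therefore depend on scaling by totals. With 1 library for each treatment the difference between these ratios was not tested.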

How the results depend on the processing

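Between ErbBi and untreated cells no paired analysis was possible, because they came as 1 library each. The class comparisons were paired within libraries through the library block. In the 3 class comparisons 0 members were lower under every alternative run. The count of 49 higher in melanin-rich than in low cells was 32 with DESeq2 and between 35 and 50 otherwise. Over all genes the count was 1591 in the main fit, 577 with DESeq2 and 660 without the block. The members' median log2 ratio of 1.14 was 1.34 with a stricter low class, 0.97 without low cells holding mesenchyme markers, and 0.94 to 1.16 in single libraries. The count of 29 in gch2-rich cells was 18 with DESeq2, 16 with a melanin threshold of 2%, 17 with a gch2 threshold of 4% and 7 without the library block, and its median was 0.62 to 0.96 in single libraries. Over all genes, 520 were higher in the main fit and 251, 350, 314 and 219 under these alternatives, in that order. The count of 9 in melanin-rich over gch2-rich cells was 5 with DESeq2 and 1 without the block. Over all genes these counts were 314, 96 and 74. The members' median was 0.00 in the ErbBi library alone and 0.31 in the untreated library alone, with 3 UMIs counted for a class at 0. The cause of these shifts was not tested. Scaling by totals alone moved the median of all genes to -0.21 in melanin-rich and -0.37 in gch2-rich cells over low cells. It moved the calls over all genes to 1477 higher and 2188 lower, against 1591 and 1657, and to 533 higher and 912 lower, against 520 and 514. DESeq2 gave 251 and 138 for gch2-rich cells.

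Of named genes, atp6ap2 in melanin-rich over gch2-rich cells lost its call under DESeq2, a gch2 threshold of 4%, the stricter low class, the depth minimum and without the block. Without the block, 8 of 15 named genes lost their call in gch2-rich over low cells. RAB38 and atp6ap1b missed in gch2-rich cells at a gch2 threshold of 4% (log2 0.72 each) and ap3m2 at a melanin threshold of 2% (0.73). Rab27a passed in melanin-rich cells of the unfiltered table (1.31) and without cells holding at least 5 UMIs of the macrophage, ionocyte, notochord, hatching gland or erythroid lists (1.71). That cut depends on depth, and it left 63 of 64 ErbBi and 337 of 403 untreated melanin-rich cells.

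The ErbBi counts, taken without TMM scaling, followed their limits. So did the shares of all genes, given in brackets as higher and lower. Over all cells, members past the fold numbered 13 higher and 35 lower with a minimum of 10 UMIs (32.1% and 14.6%), 1 and 32 with 100 (19.9% and 12.5%) and 2 and 10 at 2-fold (12.3% and 6.14%). In melanin-rich cells they numbered 3 and 10 with 100 UMIs (12.2% and 9.06%) and 3 and 5 at 2-fold (9.25% and 8.30%). In gch2-rich cells they numbered 11 and 9 with 10 UMIs (27.0% and 12.9%), 2 and 5 with 100 (8.87% and 13.8%), 0 and 5 at 2-fold (7.75% and 9.61%) and 6 and 11 by means of per-cell CPM (21.8% and 21.3%). In low cells they numbered 0 and 18 with 100 UMIs (12.2% and 9.45%) and 1 and 7 at 2-fold (8.49% and 5.28%). With totals that leave out the class genes, the untreated pump ratio (without atp6v0e1) of the last over the lowest bin was 4.70 for the melanin and 2.08 for the gch2 share.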

Other observations

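Genes linked to the proton pump but outside the symbol rule were picked after their values were seen, and each of their rows is given. RNASEK (ENSDARG00000069461), known as a ribonuclease that also associates with the vacuolar ATPase in mammals, stood at 505 CPM in melanin-rich, 290 in gch2-rich and 98.3 in low cells of the ErbBi library, and at 525, 271 and 172 CPM in those of the untreated library. Its log2 ratio over low cells was 1.97 (SE 0.23, adjusted p = 1.10e-15 by edgeR) in melanin-rich and 1.01 (adjusted p = 0.00284) in gch2-rich cells. A second RNASEK row (ENSDARG00000104458, 336 UMIs) had ratios of 0.71 (SE 0.26, adjusted p = 0.0288 by edgeR) and -0.37 (SE 0.41, adjusted p = 0.674). TCIRG1 (ENSDARG00000105142), the pump's a3 subunit known from osteoclasts and not matched by the symbol rule, had a log2 ratio of 0.39 (SE 0.30, adjusted p = 0.363 by edgeR) in melanin-rich and -0.07 (SE 0.45, adjusted p = 0.963) in gch2-rich cells. Its other row (ENSDARG00000016835, 35 UMIs) had ratios of -1.79 (SE 0.84, adjusted p = 0.101 by edgeR) and 0.95 (SE 0.82, adjusted p = 0.567).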
